A study of Mus musculus with 16 samples.

Results

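The regions described here are stretches of open chromatin that had an ATAC-seq peak in all 4 embryoid body libraries of the study and in none of its 12 libraries of undifferentiated embryonic stem cells (ESCs). ATAC-seq marks accessible DNA by where a transposase inserts adapters. Peaks of all 16 lists on chromosomes 1 to 19, X and Y were merged where they overlapped by at least 1 bp, which gave 163173 regions. Of these, 16789 regions, or 10.3%, met the rule and are called EB-only regions below. They were 39.7% of the 42306 regions found in all 4 embryoid body lists. The other 25517 regions of all 4 lists had a peak in at least 1 ESC list and are called shared regions. The regions were chosen by the presence or absence of the authors' peaks in these same lists, so their number is a description and has no test.

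All cells derived from the mouse Rx:GFP knock-in ESC line. Undifferentiated ESCs were kept in 2i+LIF, and 6 groups of 2 libraries each were profiled: parental Rx:GFP, p53 knockout clone C9, p53 knockout clone H9, and Wdr5 and p53 double knockout (DKO) cells stably transfected with a backbone plasmid, with a WDR5WT plasmid or with a WDR5S91K-Y191F plasmid. Embryoid bodies were made by SFEBq, a serum-free quick-aggregation culture with KSR in GMEM to which matrigel was added after a day, from parental Rx:GFP cells (2 libraries, day 4) and from Wdr5 and p53 DKO cells (2 libraries, day not given in the labels). The p53 knockout came as 2 clones, while the labels name no clone for the DKO cells, in which clone and genotype cannot be told apart. Nothing in the labels says whether 2 libraries of a group came from separate cultures, and a p-value then measures only the spread between these libraries.

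The embryoid body lists held 75673 to 93646 peaks and the ESC lists 1535 to 32709, and the 2 kinds of list differ in format and in the scale of their peak signal. The lowest peak signal was 200 to 200.4 in the 12 ESC lists and 1.68 to 1.98 in the embryoid body lists. The lists hold no read counts, so sequencing depth is unknown and a missing ESC peak is a peak not called, which is not a measured absence of accessibility. With the embryoid body lists cut to the length of the shortest, 14160 regions were EB-only. The part of the length of the ESC lists, and of their lowest signal, in what counts as EB-only was not tested. Just outside the rule, 12017 regions were in 3 embryoid body lists and no ESC list. A further 3109 were in all 4 with exactly 1 ESC list, and for 1323 of these that list was replicate 2 of the WDR5WT group, the longest ESC list.

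Enhancers are stretches of DNA away from gene starts that bind transcription factors and raise transcription of a gene that may lie far away, and their accessibility changes more between cell types than that of promoters. When naive ESCs leave 2i+LIF they pass through a formative state marked by the transcription factors OTX2 and POU3F1, and in SFEBq culture they go on to anterior neural tissue and to the eye field, where RAX, SIX3, SIX6, LHX2 and PAX6 act. WDR5 holds together the core of the enzyme complexes (COMPASS and MLL) that methylate histone H3 at promoters and enhancers, and p53 is a transcription factor induced by stress.

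Few EB-only regions covered a promoter, and the promoters they covered were poorer in CpG dinucleotides than those of shared regions. RefSeq (GRCm38.p6, the mm10 build) gave 21263 promoters for 17492 of 21887 protein-coding genes. The 250 bases before the start lay wholly inside an EB-only region for 687 promoters of 627 genes and inside a shared region for 10112. The ratio of observed to expected CpG had a median of 0.595 in the former and 0.772 in the latter. It was 0.226 in the other 10464 promoters, which lay wholly inside no region of all 4 lists. A ratio of at least 0.6 was found in 48.9% of EB-only promoters, 75.8% of shared promoters and 44.7% of all promoters. The median GC content was 61.2% and 62.8% for EB-only and shared promoters. The 5 promoters printed here were chosen after their values were seen, because they belong to developmental genes and span this range. They run 5′ to 3′ along the gene's strand and end at the base before the start, and capitals mark each CpG.
Lhx2, chr2:38339031-38339280, plus strand: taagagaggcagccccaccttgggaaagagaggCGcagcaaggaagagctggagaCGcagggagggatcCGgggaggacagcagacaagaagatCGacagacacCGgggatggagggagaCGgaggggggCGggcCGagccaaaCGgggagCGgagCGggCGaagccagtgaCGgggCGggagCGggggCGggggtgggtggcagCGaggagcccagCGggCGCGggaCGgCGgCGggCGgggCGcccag
Pax2, chr19:44756656-44756905, plus strand: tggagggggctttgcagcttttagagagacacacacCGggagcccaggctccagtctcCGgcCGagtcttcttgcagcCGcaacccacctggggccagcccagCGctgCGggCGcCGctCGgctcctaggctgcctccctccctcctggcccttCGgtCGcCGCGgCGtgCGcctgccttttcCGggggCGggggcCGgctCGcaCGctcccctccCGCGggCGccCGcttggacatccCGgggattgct
Mab21l2, chr3:86548284-86548533, minus strand: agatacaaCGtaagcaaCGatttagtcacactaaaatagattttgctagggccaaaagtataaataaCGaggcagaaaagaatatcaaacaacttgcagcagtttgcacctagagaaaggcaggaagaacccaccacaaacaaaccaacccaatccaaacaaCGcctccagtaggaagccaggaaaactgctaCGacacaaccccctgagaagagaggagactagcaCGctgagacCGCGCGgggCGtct
Fabp7, chr10:57784673-57784922, plus strand: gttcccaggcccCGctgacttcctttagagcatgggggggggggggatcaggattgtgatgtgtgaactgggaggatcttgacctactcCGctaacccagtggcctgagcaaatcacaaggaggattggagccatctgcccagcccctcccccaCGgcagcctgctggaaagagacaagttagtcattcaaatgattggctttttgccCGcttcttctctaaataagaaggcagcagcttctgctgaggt
Aldh1a1, chr19:20601718-20601967, plus strand: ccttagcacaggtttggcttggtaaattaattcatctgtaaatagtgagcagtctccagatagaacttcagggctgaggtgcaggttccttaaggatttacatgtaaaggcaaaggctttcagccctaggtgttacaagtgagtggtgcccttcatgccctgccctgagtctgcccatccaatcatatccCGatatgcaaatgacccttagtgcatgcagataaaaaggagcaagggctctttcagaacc
The Lhx2 promoter, of a LIM homeodomain factor needed for eye formation, holds 25 CpG (ratio 0.895), and so does that of Pax2 (ratio 0.761), a paired-domain factor of the optic stalk. That of Mab21l2, a gene required for eye development, holds 10 (ratio 0.735). Fabp7, which encodes a fatty acid binding protein of neural progenitors, has 4 (ratio 0.214). Aldh1a1, which encodes a retinaldehyde dehydrogenase of the dorsal retina, has a single CpG (ratio 0.0743). The region over the Fabp7 promoter had a fold enrichment of 5.25 and 5.83 in the parental lists and of 3.94 and 5.81 in the DKO lists. That over Aldh1a1 had 6.14 and 4.65 against 4.86 and 6.09. The parental and DKO ranks overlapped at both. These 2 promoters were higher in every list than that of Lhx2 (2.63, 2.89, 2.67 and 3.52, in the same order) and than that of Pax2 (2.75, 2.89, 2.55 and 2.74). Fold enrichment here is the authors' peak value, taken to be that from its range, of the highest peak of the region in each list. It describes a region within a list. Wherever parental and DKO lists are compared at a region, the comparison is of the region's ranks among the regions of all 4 lists (percentiles, 100 the highest), not of the fold enrichments. Ranks called higher, apart or not overlapping at a region are so at any gap, unless a gap is given. With no minimum gap, both parental ranks were higher at 24.4% of the regions of all 4 lists and both DKO ranks at 20.4%.

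Short motifs were searched on both strands of the same 250 bases, and none of those named here contains another. The GC box CCCGCC was in 55.9% of EB-only promoters, 67.1% of shared promoters and 42.1% of all promoters. The SOX core ACAAAG was in 14.3%, 9.81% and 14.9%, the E-box CAGCTG in 13.2%, 11.5% and 12.1%, and the RFX half-site GTTGCC in 13.5%, 10.7% and 10.5%. The homeodomain core TAATTA was in 1.60%, 1.38% and 4.31%, and the octamer ATGCAAAT, a POU factor motif which the Aldh1a1 promoter holds, in 1.46%, 1.36% and 1.58%. A match is a match of letters and is not evidence of binding.

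EB-only regions lay near a small number of miRNA genes. Of 1005 hairpins in the RefSeq table, 45 lay within 1000 bp of an EB-only region and 144 within 1000 bp of a shared one. EB-only regions made up 39.7% of the regions of all 4 lists, a larger share than that of the hairpins. The 45 were of many kinds and included Mir144 and Mir451a, known from erythroid cells, and Mir375, Mir152, Mir199b, Mir503 and Mir675. The mature forms below are those of neural and epithelial miRNAs, picked after the hairpins were listed because they bear on the tissue, with the seed (bases 2 to 8) in capitals.
miR-9-5p: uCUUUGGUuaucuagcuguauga
miR-9-3p: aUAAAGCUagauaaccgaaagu
miR-219a-5p: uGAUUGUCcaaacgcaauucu
miR-128-3p: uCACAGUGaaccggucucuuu
miR-200c-3p: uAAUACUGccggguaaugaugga
miR-141-3p: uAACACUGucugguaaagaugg
No seed among the 6 is shared. miR-9 promotes neuronal differentiation, and the region 147 bp from its Mir9-1 hairpin (chr3:88214252-88215451) had fold enrichments of 3.65 and 3.17 in parental and of 3.37 and 3.39 in DKO lists. The region 46 bp from Mir219a-2 (chr2:29845773-29846678), whose miR-219a is best known from oligodendrocytes, had 2.82, 2.75, 2.61 and 3.11. The region 606 bp from Mir128-2 (chr9:112119317-112119824), whose miR-128 is enriched in brain, had 3.41, 3.83, 3.96 and 3.42, and lay 20 bp from an ESC peak. The ranks of the 2 groups overlapped at Mir9-1, Mir219a-2 and Mir128-2. Mir200c and Mir141, epithelial miRNAs that target the ZEB factors, shared one region (chr6:124718411-124719591) that was 2.68 and 3.0 in parental and 3.47 and 3.17 in DKO lists. It ranked at percentiles 2.34 and 8.25 in the former and at 30.4 and 10.8 in the latter, so both DKO ranks were higher.

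EB-only regions lay mostly away from the ends of genes. A gene end is either end of a protein-coding gene, and a region was at one when it came within 1000 bp. This held for 1833 EB-only regions (10.9%) against 11242 shared regions (44.1%). Within 1000 bp of an annotated start were 7.17% of EB-only and 37.7% of shared regions. The median distance to a gene end was 23668 bp for EB-only regions (quartiles 6389 and 78122 bp) and 3216 bp for shared ones. Away from gene ends, 6683 EB-only regions (39.8%) had their middle inside a gene and 8273 (49.3%) between genes. Exons and introns were not told apart here. Beyond 100 kb from every gene end were 3443 EB-only regions (20.5%) and 14.0% of shared ones. Regions are not replicates, so these shares carry no test. Leaving out any of the 4 embryoid body lists gave a gene end share of 9.84% to 10.6%. Leaving out any of the 12 ESC lists gave 10.9% to 13.2%, the highest without WDR5WT replicate 2.

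**Figure D1:**
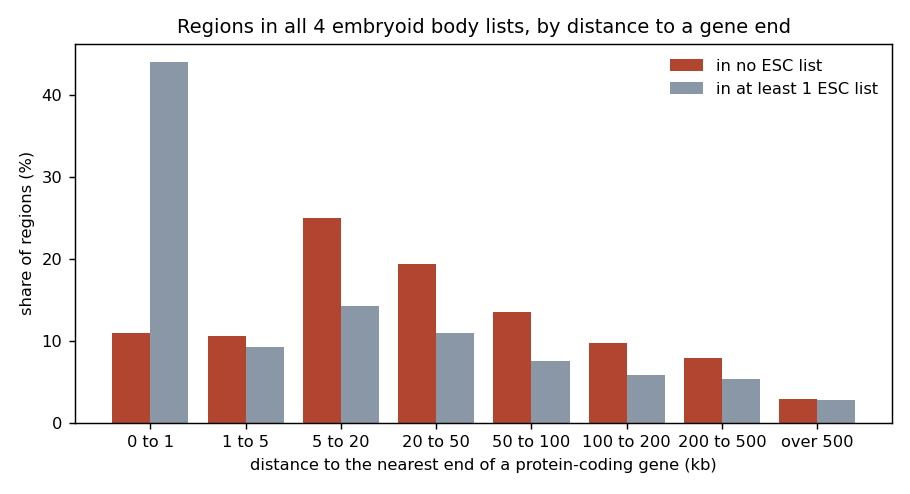
Share of EB-only regions (red) and shared regions (grey) in each class of distance to the nearest gene end, in kb. The first class (0 to 1 kb) holds 10.9% of EB-only and 44.1% of shared regions, and the class from 5 to 20 kb holds 25.04% and 14.2%.

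The classes of distance showed how far the difference reached. Among regions at a gene end 14.0% were EB-only, and among those 1 to 5 kb away 43.1%. From 5 kb to 200 kb the share stayed between 52.3% and 54.0%, and in the farthest class it was 41.0%. Regions just outside the rule differed from both classes. Those in all 4 embryoid body lists with exactly 1 ESC list were at gene ends in 28.3% of cases, and those in 3 embryoid body lists with no ESC list in 6.24%. The nearest ESC peak to an EB-only region was a median of 17977 bp away, 68.9% had none within 10 kb, and 541 (3.22%) had one within 1000 bp. The embryoid body peaks in them were narrower, with a median of 393 bp against 626 bp in shared regions.

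EB-only regions ranked in the middle of their lists and below the shared ones. Peaks of each list were ranked by fold enrichment, as percentiles with 100 the highest. The median EB-only region stood at percentile 64.3 and 58.8 in the parental lists and at 54.1 and 58.5 in the DKO lists, while the medians of shared regions lay between 75.7 and 78.9. The median fold enrichment of EB-only regions was 3.88 and 3.77 in parental and 3.58 and 3.88 in DKO lists. The highest values were 11.6, 10.6, 9.26 and 10.4. In the top 10% of the lists were 1872 and 1288 EB-only regions for the parental and 1205 and 1587 for the DKO libraries. The mean of the library medians was 61.5 ± 3.89 (SD, n = 2) for parental and 56.3 ± 3.10 (SD, n = 2) for DKO. Both DKO medians were below both parental ones, and the difference did not pass a test that cannot go below p = 0.333 with 2 against 2 (two-sided exact permutation test, p = 0.333). Ranked among the 42306 regions common to all 4 lists, so that each list ranks the same regions, the means were 37.1 ± 0.468 and 35.3 ± 0.162 (SD, n = 2 each, two-sided exact permutation test, p = 0.333), again without overlap.

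**Figure D2:**
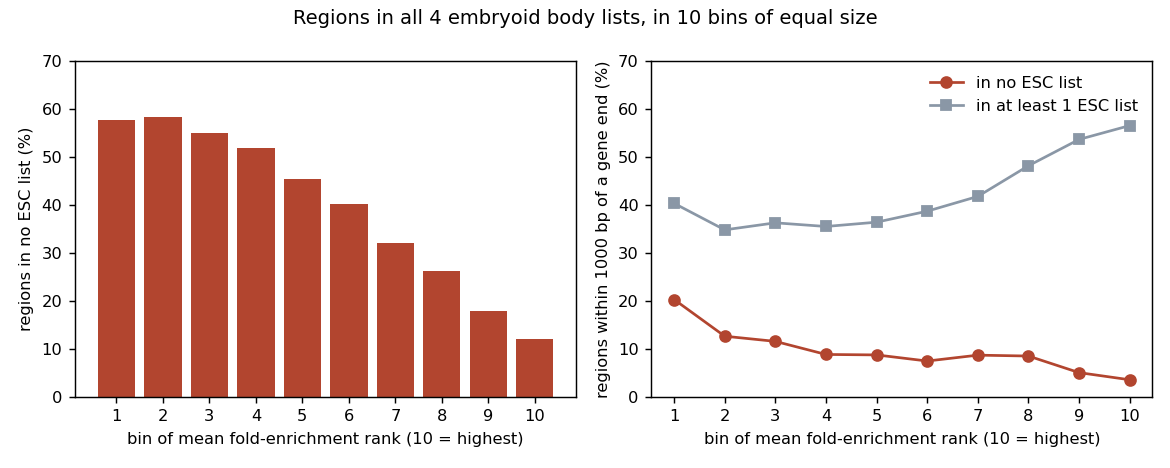
Regions of all 4 embryoid body lists in 10 bins of equal size by mean rank of fold enrichment (bin 10 highest): left, the percentage that is EB-only, which is 57.7% in bin 1 and 11.98% in bin 10; right, the percentage at a gene end among EB-only (red circles) and shared regions (grey squares). At the highest ranks the red line falls to 3.55% and the grey line rises to 56.6%.

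Compared with the lowest-ranked bin, EB-only regions of the highest-ranked bin lay farther from gene ends, and shared regions nearer to them. The EB-only share fell from 57.7% of the lowest-ranked bin to 11.98% of the highest-ranked bin, with its highest value, 58.4%, in bin 2. Within EB-only regions the share at gene ends fell from 20.3% in bin 1 to 3.55% in bin 10, and the median distance to a gene end rose from 7932 to 73741 bp. In shared regions the gene end share was 40.3% in bin 1 and 56.6% in bin 10, and the median distance went from 2151.5 bp to 0. The share beyond 100 kb rose from 8.07% to 41.8% in EB-only regions and from 6.03% to 15.7% in shared ones.

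Most of the highest-ranked EB-only regions lay far from any gene end. The highest of all, by its lowest rank over the 4 lists, was chr2:46506916-46507548, between genes and 1389474 bp from the nearest gene end, that of Zeb2, a zinc finger repressor of neural and neural crest development. Its fold enrichment was 11.02 and 9.69 in parental and 9.26 and 10.4 in DKO lists. The next was chr5:81344281-81344801 inside Adgrl3, a latrophilin adhesion receptor of synapses (9.76, 9.20, 8.65 and 9.31). A region 177000 bp from Aasdhppt followed (11.6, 9.02, 9.21 and 9.54), then one 391977 bp from Ptbp2, a splicing regulator of neurons (9.78, 9.78, 8.39 and 9.91), and one 1247576 bp from Cited2, a transcriptional coregulator (9.97, 9.76, 7.75 and 8.87). The parental and DKO ranks of the Zeb2, Adgrl3, Aasdhppt and Ptbp2 regions overlapped, while both parental ranks of the Cited2 region were higher. The other 10 of the highest 15 were nearest to Nuf2, Pcdh17, Csmd1, Adgrl4, Chrm3, Hnf4g, Gbe1, Cdh20, Olfr1015 and Satb1. Of the 15, 12 were over 100 kb from a gene end and 12 between genes, and the nearest ESC peak of any was 7680 bp away. Among the 100 highest the median distance to a gene end was 99714.5 bp, and 3 were at a gene end.

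At gene ends, the highest-ranked EB-only regions were those of Gpr119, Calcoco2, Rnf43, Triobp, Etnppl, Ms4a13, Sel1l2, Cldn11, Slc2a6 and Cfap97d2. Rnf43 encodes a ubiquitin ligase that removes Wnt receptors, and the region 237 bp upstream of its start (chr11:87662323-87662850) had 7.94 and 6.81 in parental and 5.82 and 6.71 in DKO lists, with both parental ranks higher. Etnppl encodes a phospholipid enzyme, and the region over its start (chr3:130617357-130618019) had 7.27, 6.06, 5.97 and 6.90. Cldn11, a tight junction claudin, had 5.62, 6.37, 5.47 and 5.75 over its start (chr3:31149492-31150315). The ranks of the 2 groups overlapped at Etnppl and Cldn11. Sel1l2 was the only one of the 10 with both DKO ranks (99.4 and 97.7) above both parental ranks (85.3 and 87.1). The 5 EB-only regions farthest from any gene end lay 1835412 to 2106487 bp away, and the nearest genes were Pcdh20, Pcdh17 (2 regions), Pik3c3 and Olfm4.

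EB-only regions were spread over many genes, with dense groups at a few. Each region was assigned to the gene with the nearest end within 100 kb, which places no claim on which gene it acts on. Of 21887 genes, 7720 had at least 1 EB-only region and 286 had at least 5. The 15 genes with the most were Septin9 (13), Bcor (12), Maml3, Igsf21, Ryr1 and Tle3 (11 each), Grik3, Ntrk2 and Dgkg (10 each), Dab2ip, Rhcg and Gm39147 (9 each), and Nfasc, Prex1 and Ahdc1 (8 each). Bcor, which encodes a corepressor of a Polycomb complex, had 12 regions of all 4 lists and each was EB-only. So was each of the 11 at Ryr1, a calcium release channel of muscle, and of the 8 at Nfasc, the cell adhesion protein neurofascin of axons. At Maml3, a Notch coactivator, 11 of 12 were EB-only, and at Ntrk2, the BDNF receptor of neurons, 10 of 11. Other genes had more shared regions: 13 of 19 were EB-only at Septin9, 9 of 13 at Dab2ip, and 8 of 12 at Prex1 and at Ahdc1. The genes were ranked by the number of EB-only regions, not by their share. The order depended on the assignment limit: within 50 kb, Septin9 had 6, Maml3 6, Grik3 6, Ntrk2 6, Dgkg 4 and Dab2ip 3, while Bcor had 10, Rhcg and Gm39147 had 9 each, and Igsf21, Ryr1 and Tle3 had 8 each.

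The Bcor regions spread from chrX:11998831 to chrX:12252915, and no ESC peak lay within 334412 bp of any of them. The region in the body of the gene at chrX:12113962-12114448 had 6.16 and 3.63 in parental and 4.30 and 3.99 in DKO lists, with overlapping ranks. The region upstream at chrX:12224926-12225803 had 5.51 and 4.70 against 3.90 and 4.41, with ranks of 79.9 and 66.7 against 49.6 and 53.2. In parental replicate 1 the 12 regions ran from 2.61 to 6.16. At Tle3, a Groucho corepressor, the 11 regions ran in parental replicate 1 from 1.98 at the 5′ part of the gene (chr9:61373857-61374729) to 5.32 beyond its 3′ end (chr9:61435109-61435824). At Ryr1 the region over the start (chr7:29125008-29125383) had 5.27, 5.53, 4.24 and 4.45, with both parental ranks higher. One 15551 bp inside the gene (chr7:29108765-29109600) had 5.44, 4.35, 4.73 and 4.93, with overlapping ranks.

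The share of EB-only regions differed widely between gene lists. Among all regions of all 4 lists assigned to a gene, 37.8% were EB-only, which is the background for each list. The background is not matched for distance, and the EB-only share was 14.0% at gene ends and 54.0% at 50 to 100 kb. The part of each list's mix of gene end and distant regions in its share was not tested. The lists were chosen with earlier results of these data known, and their shares are a description with no test. Of the 26 lists, 19 were above the background and 7 below. The highest shares were those of the Hox clusters (21 of 34 regions, 61.8%), the POU and Otx family (38 of 64, 59.4%), formative and primed pluripotency (52 of 95, 54.7%), and eye field and retinal progenitor genes (77 of 144, 53.5%). The lowest were those of COMPASS and MLL subunits (2 of 29, 6.90%), naive and core pluripotency (20 of 98, 20.4%), Hippo and TEAD genes (11 of 53, 20.8%) and ubiquitously expressed genes (9 of 37, 24.3%), followed by ribosomal protein genes (26.7%), p53 targets (28.8%) and classical cadherins and catenins (26 of 79, 32.9%). Without chromosome 8, where EB-only regions were scarcer, the cadherin and catenin list stood at 38.9%. The other lists below the background then stood at 7.41% to 29.4%. The background of 37.8% includes chromosome 8. Endoderm (38.6%), neuronal maturation (39.1%) and retinoic acid genes (40.4%) were near the background. Within 50 kb in place of 100 kb, EB-only regions fell from 93 to 61 for axon guidance genes and from 26 to 14 for cadherins and catenins. Lists of mesoderm, neural crest and mesenchyme genes were also above the background (47.6%, 52.2% and 50%), so neural lists were not the only ones with high shares.

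**Figure D3:**
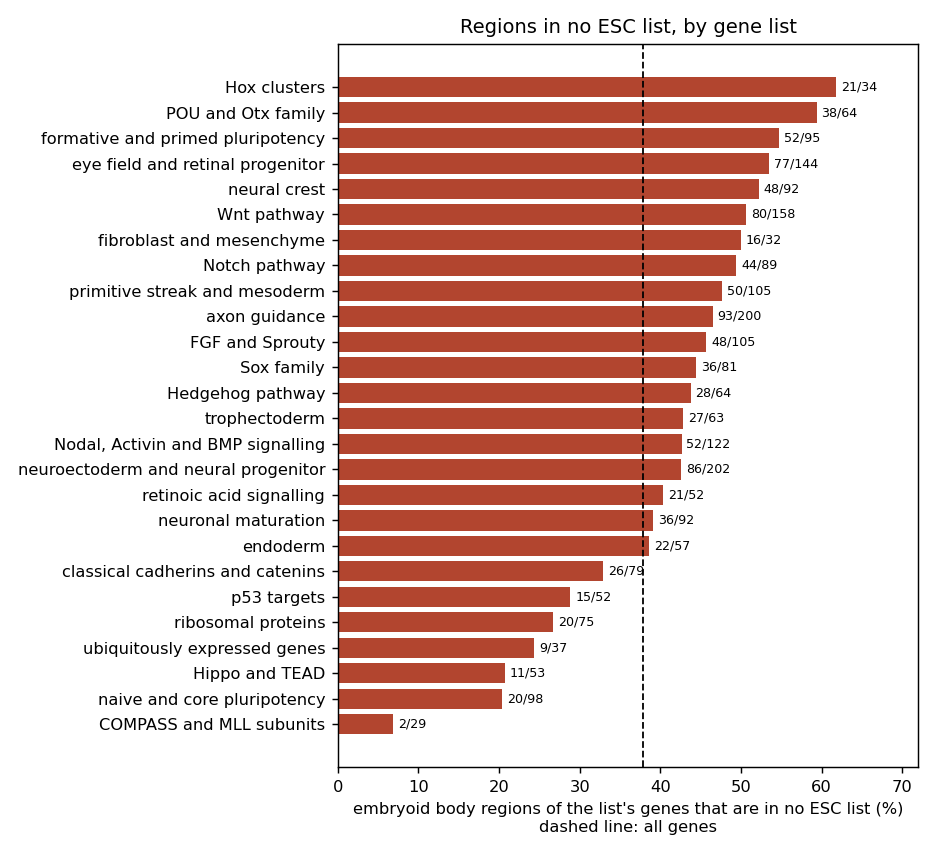
Percentage of the embryoid body regions assigned to each gene list that is EB-only, with the number of EB-only regions over all regions of the list beside each bar. The dashed line marks 37.8%, the share over all assigned regions, and the bars run from 6.90% for COMPASS and MLL subunits to 61.8% for the Hox clusters.

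Formative genes had EB-only regions at 17 of 18 genes, with a median of 3 per gene. Otx2 and Pou3f1, the transcription factors that define this state, had 6 each (of 9 and 7 regions), Dnmt3a, a de novo DNA methyltransferase, had 5 of 8, and Lef1, a factor of the Wnt pathway, had 4 of 9. Fgf5, a secreted factor of the epiblast, had 3 of 5. The one 15953 bp beyond the gene (chr5:98292986-98294015) had 6.88 and 8.37 in parental and 5.72 and 5.99 in DKO lists. Its ranks were 94.8 and 99.5 against 92.2 and 87.9. Its neighbour 6728 bp beyond the gene (chr5:98283761-98284310) had 5.23 and 4.89 against 3.65 and 4.60, with ranks of 74.8 and 71.5 against 38.8 and 59.1. The 3rd (chr5:98302258-98302991) had 4.34 and 4.44 against 3.67 and 3.64, so at all 3 both parental ranks were higher. At 2 of the 3 the gap was at least 10 percentile points. The 6 at Pou3f1 lay 4221 to 81926 bp from the gene. A region of Lef1 went the other way: chr3:131064991-131065594, between genes, had 3.68 and 3.65 in parental and 4.60 and 4.79 in DKO lists, with ranks of 30.2 and 32.1 against 73.1 and 64.8. Zic5 was the 1 gene of the list with none.

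At Otx2 the 6 EB-only regions lay on both sides of the gene's upstream end, and distances here are from that end in kb, negative upstream. The 3 nearest, at 1.313, -1.366 and -6.759 kb, ranked at percentile 40.3 or below in each list. At the latter 2 of them both parental ranks were above both DKO ranks, by 3.58 and 9.33 points. That at -70.732 kb (chr14:48738128-48738625) had fold enrichments of 5.55 and 5.30 in parental and 3.39 and 3.72 in DKO lists, and ranked at 80.4 and 79.5 against 26.8 and 29.1. The groups were 50.4 points apart there, and it was the 1 region of the 6 with a gap of at least 10 points. The region at -55.269 kb had 3.79 and 3.47 in parental and 4.31 and 3.96 in DKO lists. Its ranks of 34.3 and 24.6 against 64.2 and 38.0 were apart in the opposite direction, by 3.68 points. That at -86.708 kb had 3.62, 3.96, 3.77 and 3.88, with overlapping ranks. Among them lay 2 shared regions, at -33.558 and -42.085 kb, found in 8 and 7 ESC lists, and a 3rd at 12.405 kb, found in 9.

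**Figure D4:**
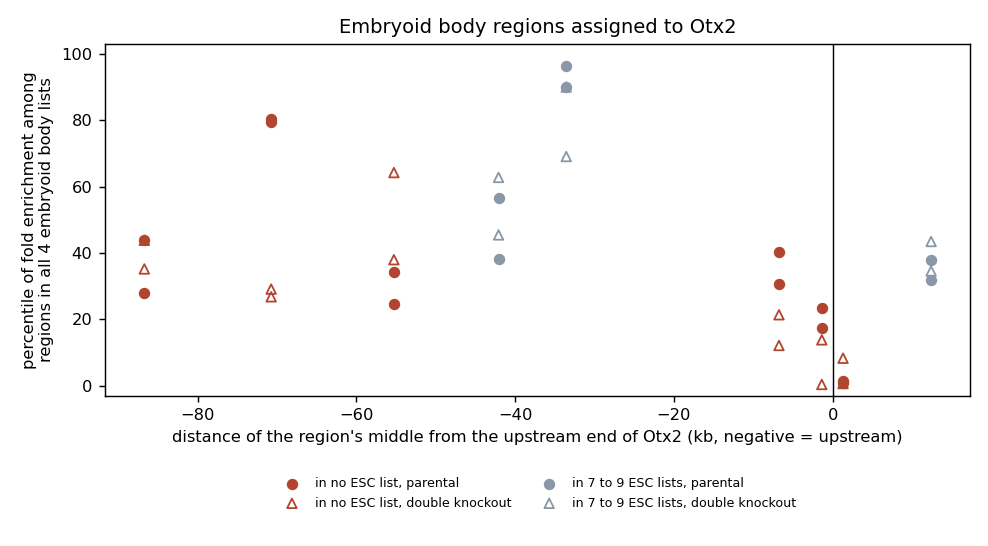
Percentile of fold enrichment, among the regions of all 4 embryoid body lists, of the 9 regions assigned to Otx2 in each list (filled circles parental, open triangles DKO), against the distance of the region's middle from the upstream end of the gene in kb. Red regions are in no ESC list and grey ones in 7 to 9 ESC lists; at -70.732 kb both circles (80.4 and 79.5) are above both triangles (26.8 and 29.1).

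Eye field and retinal progenitor genes had EB-only regions at 29 of 33 genes, and 12 of their 77 regions were at gene ends. Bmp4, which encodes a ligand that patterns the dorsal eye, had the most (7 of 8), followed by Otx2 with 6, and by Lhx2 (5 of 9), Meis1 (5 of 12), a homeodomain factor, and Bmp7 (5 of 7), a lens and retina ligand. The eye field markers Rax, Six3, Six6 and Lhx2 each had at least 1, and the ends of Six3 and Lhx2 had no peak in any ESC list. Rax, the gene of the Rx:GFP reporter, had 1 of 5 (chr18:65944587-65944855), 5498 bp away, with 3.59, 3.74, 4.02 and 3.47, and its ends had a peak in 8 ESC lists. The region 31817 bp from Six6 (chr12:72976716-72977106) had 6.15 and 6.17 in parental and 4.02 and 6.45 in DKO lists. Its rank was 54.5 in DKO replicate 1 and 88.6 to 92.7 in the other 3 lists. The 2 at Six3 had 3.73, 3.48, 4.31 and 4.08 (chr17:85595793-85596186) and 2.98, 3.15, 2.95 and 3.01 (chr17:85608483-85609264). Both DKO ranks of the former were higher, by less than 10 percentile points, and the ranks of the latter overlapped. With no minimum gap, both DKO ranks were higher at 20.4% of the regions of all 4 lists. Of the list, Fzd5, Hmx3, Aldh1a3 and Mab21l1 had none.

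At Bmp4 the EB-only regions flanked the gene, from chr14:46362826 to chr14:46437264. The highest was 27686 bp upstream (chr14:46418355-46418760), with 5.18 and 5.33 in parental and 5.67 and 5.88 in DKO lists, and ranks of 73.8 and 79.9 against 91.6 and 86.4. The region over the gene's start (chr14:46390250-46390839) had 2.91, 2.68, 2.43 and 3.18, with overlapping ranks. It was the lowest of the 7 in each list. At Lhx2 the region inside the gene at its 3′ part, 563 bp from its end (chr2:38368708-38369174; 4.59, 4.58, 4.89 and 3.66), was the highest of the 5 in 3 of the 4 lists, and the one over the start was the lowest in 3.

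Neuroectoderm and neural progenitor genes stood at 42.6% EB-only (86 of 202 regions), nearer to the background. Pax7, a paired-domain factor of the dorsal neural tube and neural crest, had 8 of 8, and the window chr4:139800001-140000000 around it held 11 regions of all 4 lists, each EB-only. The highest of the 8 in 3 of the 4 lists was 25699 bp upstream (chr4:139858667-139859258; 4.85, 4.21, 3.82 and 4.52, overlapping ranks), and the one over the start (chr4:139832676-139834018) was the lowest of them in each list, with 2.65, 2.58, 2.56 and 2.48. Pax2 had 7 of 9, Pou3f3, a POU factor of the forebrain, 6 of 7, and Lmx1b, a LIM homeodomain factor, 6 of 9. Pax6 and Sox2 had 1 of 7 and 2 of 7, and Nes, the intermediate filament nestin, 0 of 2. The Sox family as a whole had 36 of 81 (44.4%), led by Sox4 with 6 and by Sox13, Sox6 and Sox9 with 4 each.

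Genes of the POU and Otx family stood at 59.4%, but this rested on few of them. Otx2, Pou3f1, Pou3f3 and Pou2f2 had 6 each, which is 24 of the 38, and 6 of the 16 genes had none. Pou2f2, which encodes the octamer factor OCT2, had its highest EB-only region 6823 bp from the gene (chr7:25187620-25188110), with 6.05, 4.99, 4.78 and 5.32. The Hox clusters, which pattern the trunk and hindbrain, had few regions in any class: 25 of 39 genes had no EB-only region. Hoxd3 had 3 of 3, and Hoxa13, Hoxb9 and Hoxb2 had 2 each. Their EB-only regions lay close to genes, with a median distance of 1196 bp, and 9 of 21 were at a gene end. That over the start of Hoxd3 (chr2:74711919-74712519) had 3.87, 3.51, 4.05 and 4.23, with both DKO ranks higher.

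Naive and core pluripotency genes kept ESC peaks at most of their embryoid body regions. Only 20 of 98 were EB-only, at 15 of 28 genes, and Pou5f1, Klf2 and Klf4 were among the 13 with none. Esrrb, a nuclear receptor of naive ESCs, had the most (3 of 9). Of these the region over an internal start (chr12:86421364-86422116) had 3.57, 5.10, 3.88 and 3.43, with overlapping ranks, and another (chr12:86403846-86404463) lay 271 bp from an ESC peak. Nr5a2, Sall4 and Sox2 had 2 each. Nanog had 1, 819 bp from the gene (chr6:122715452-122716421), with 5.32 and 4.57 in parental and 4.01 and 4.50 in DKO lists. Both parental ranks were higher there, by less than 10 percentile points. With no minimum gap, both parental ranks were higher at 24.4% of the regions of all 4 lists.

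Of the signalling lists, 6 were above the background and the Hippo and TEAD list, with 4 of its 11 EB-only regions at Tead1, was below it. Wnt genes had 80 of 158 regions EB-only (50.6%), with Fzd7, a receptor, at 6 and Tcf7l2, a DNA-binding effector, at 5. Notch genes had 44 of 89 (49.4%), 11 of them at Maml3 and 5 at Hes1, a repressor induced by Notch. FGF genes had 48 of 105 (45.7%), led by the receptor Fgfr2 with 6 and the inhibitor Spry4 with 4 of 4. Hedgehog genes had 28 of 64 (43.8%), with Ptch1, Gli2 and Sufu (a receptor, an effector and an inhibitor) at 4 each. Nodal, Activin and BMP genes had 52 of 122 (42.6%), with the ligands Bmp4 and Bmp7 at 7 and 5, the inhibitory Smad6 at 6 and the antagonist Chrd at 5. Retinoic acid genes had 21 of 52 (40.4%), with 5 at the receptor Rxra. Of axon guidance genes, 32 of 33 had an EB-only region, 93 of 200 regions in all (46.5%), led by the ligand Slit1 with 7 of 7 and the receptor Ephb1 with 6 of 8.

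Lists of other lineages were measured in the same way. Primitive streak and mesoderm genes had 50 of 105 regions EB-only, with Gsc, a homeobox gene of the streak, at 4 of 5, and Lmo2 and Eomes at 3. Of their 4 markers, T (brachyury) had 1 EB-only region, over its start (chr17:8433483-8434814; 2.68, 2.91, 2.89 and 3.43), and Mixl1, Tbx6 and Mesp1 had none. Endoderm genes stood at 38.6%, with Prdm1 at 3, trophectoderm genes at 42.9%, with Fgfr2 at 6, and neuronal maturation genes at 39.1%, with Rbfox3 and Myt1l at 5 each. Neural crest genes stood at 52.2%, with Pax7 at 8 and Ets1 at 7. In bulk tissue a peak from few cells of a type and a weak peak in all cells cannot be told apart. Of the markers, the ends of Tbx6, Gata4 and Dcx had no peak in any embryoid body list, while those of 30 of the 39 markers had one in all 4. Among these 30 were 5 of the 6 naive markers (Pou5f1, Klf4, Nanog, Tfcp2l1 and Zfp42). The 6th, Esrrb, had an end peak in 2 embryoid body lists and in no ESC list.

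Genes of the complexes that hold WDR5 had few EB-only regions. COMPASS and MLL subunit genes had 2 EB-only regions among 29, at Rbbp5 and Cxxc1. The Rbbp5 region covered an annotated start (chr1:132476896-132477767) with 3.82 and 4.91 in parental and 3.93 and 4.21 in DKO lists, with overlapping ranks. Wdr5, Ash2l and Dpy30 were among the 18 genes with none, and both regions of Wdr5 were shared. p53 target genes had 15 of 52 regions EB-only (28.8%), 4 of them at Pmaip1, which encodes the apoptosis factor NOXA.

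Some EB-only regions ranked apart between parental and DKO embryoid bodies. The comparison asks whether accessibility in embryoid bodies follows Wdr5 and p53 genotype, and the rule for EB-only regions did not use it. A region was counted when its 2 ranks in one genotype were each at least 10 percentile points above both ranks in the other, among the 42306 common regions. Parental lists ranked 2165 EB-only regions higher (12.9%), against 9.11% of all common regions and 6.61% of shared ones. DKO lists ranked 1506 higher (8.97%), against 8.89% of all and 8.84% of shared regions, so that direction was at the background. With a gap of at least 20 points the counts were 1028 (6.12%) and 688 (4.10%), against 1.99% and 4.15% of shared regions. With no minimum gap they were 4288 (25.5%) and 3323 (19.8%), against 24.4% and 20.4% of all common regions, so the parental share was then near the background. The day of the DKO embryoid bodies is not in the labels, and the part of a difference in day was not tested. The counts are no test: with 2 libraries in a group, the exact permutation test of a single region cannot go below p = 0.333. Leaving out any 1 of the 4 embryoid body lists raised both counts by over 1.5 times, to 4127 to 4642 for parental and to 3293 to 3918 for DKO. In these settings 3 ranks were compared in place of 4, and the EB-only regions numbered 18357 to 21568. The part of each in the higher counts was not tested.

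The regions that differed in rank lay farther from gene ends than EB-only regions at large. Of those ranked higher in DKO lists 5.18% were at a gene end, with a median distance of 41823 bp. Of those ranked higher in parental lists 9.61% were, with a median of 28260 bp. Over all EB-only regions the values were 10.9% and 23668 bp. The middle of the region was inside a gene in 38.7% of the former, 49.3% of the latter and 47.5% of all. These sets were not matched for rank. A region whose 4 ranks lie within 10 points of each other cannot be counted, as at the lowest and highest ranks. EB-only regions of the lowest-ranked bin lay nearest to gene ends (median 7932 bp) and those of the highest-ranked bin farthest (73741 bp). The part of the gap rule in the distances was not tested. Across EB-only regions the percentiles of the 2 parental lists correlated at r = 0.737, those of the 2 DKO lists at 0.684, and those of a parental with a DKO list at 0.524 to 0.615. These are correlations over regions within libraries, given as a description.

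**Figure D5:**
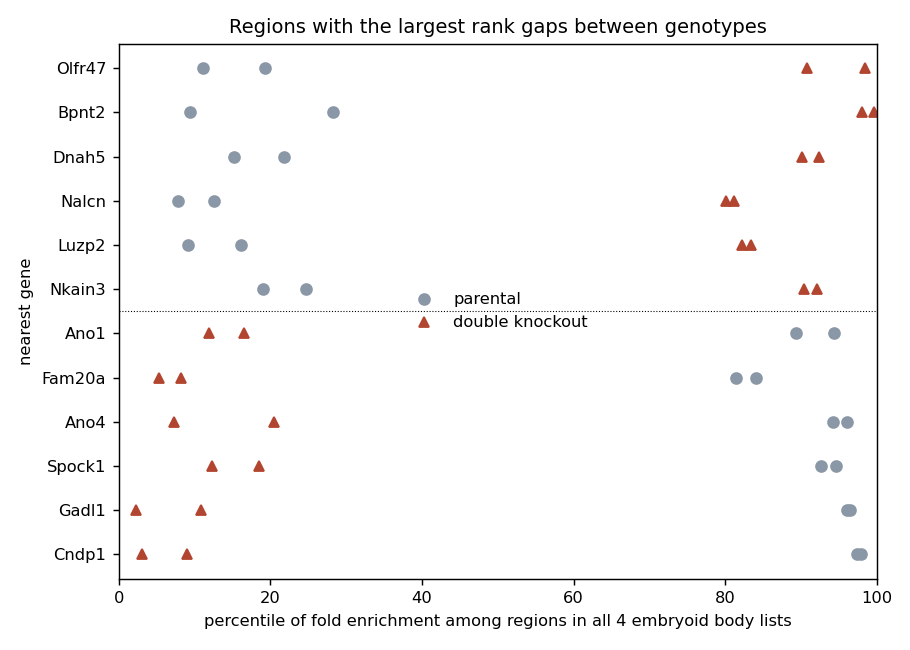
Percentile of fold enrichment among the regions of all 4 embryoid body lists, for the 6 EB-only regions per direction with the largest gap between genotypes, named by the nearest gene. Grey circles are the 2 parental lists and red triangles the 2 DKO lists; at Cndp1 the circles stand at 97.4 and 97.9 and the triangles at 3.09 and 8.99.

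The largest gap toward parental was at chr18:84625440-84625858, inside a gene and 15056 bp from an end of Cndp1, which encodes a carnosine dipeptidase. Its fold enrichment was 7.52 and 7.35 in parental and 2.70 and 3.10 in DKO lists. The next was chr9:115661864-115662320, 222351 bp from Gadl1 (7.15 and 6.93 against 3.0 and 2.73). The other 6 were nearest to Spock1, Ano4, Fam20a, Ano1, Tcf4 and Foxn2. Tcf4 encodes a basic helix-loop-helix factor of neural development, and its region (chr18:69191468-69192051) lay 151378 bp from the gene's end, with 7.57 and 6.26 against 3.22 and 2.70. In the other direction the largest gap was at chr6:43235856-43236598 over an end of Olfr47, an olfactory receptor gene, with 3.11 and 3.33 in parental and 5.59 and 7.74 in DKO lists. The next, 75180 bp from Bpnt2 (chr4:4686929-4687304), had 3.05 and 3.56 against 6.80 and 8.74. Others were nearest to Dnah5, Nalcn, Luzp2, Nkain3 and Adcy2. In all of these the parental and DKO ranks did not overlap, which is what they were chosen for.

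Within the gene lists the numbers that differed in rank were small. The share of a list's EB-only regions that parental lists ranked higher ran from 0 of 2 for COMPASS and MLL subunits and 3 of 77 for eye field genes (3.90%) to 8 of 36 for the Sox family (22.2%), on a background of 12.9% over EB-only regions (8.97% in the DKO direction). It was 8 of 38 for the POU and Otx family (21.1%), 4 of 20 for naive and core pluripotency genes (20%), 9 of 48 for FGF genes (18.8%) and 17 of 93 for axon guidance genes (18.3%). Formative genes had 5 of 52 ranked higher in parental and 7 of 52 in DKO lists, and eye field genes 3 and 6 of 77. Wnt genes had 13 and 10 of 80.

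EB-only regions were scarcer on chromosome 8 than on other autosomes, and several ESC lists had more peaks there. Of the 2482 common regions on chromosome 8, 671 (27.0%) were EB-only, the lowest share of any autosome. The other autosomes ran from 37.0% on chromosome 6 to 45.6% on chromosome 15, and chromosome X stood at 33.3%. Against the 2 parental ESC lists alone, an alternative chosen after seeing the data, 67.5% of chromosome 8 regions lacked an ESC peak, against 67.3% of all common regions. In each of the 10 ESC lists with a p53 deletion, the share of common regions with a peak was higher on chromosome 8 than on the other autosomes, from 1.30 times in WDR5WT replicate 2 to 7.07 times in backbone replicate 1, where few peaks were called. It was 0.995 and 1.22 times in parental replicates 1 and 2. The p53 knockout clones had 55.3% to 58.7% on chromosome 8 and 37.9% to 43.7% on the other autosomes.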

How the data were processed

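ATAC-seq was measured in 16 libraries, 2 in each of 8 groups, with 1 peak list each. Per the submitters' processing notes the build was mm10 and the tools included MACS2 2.1.2, Genrich 0.6 and the aligner Bowtie2 2.3.5, besides DESeq2 and SAMtools. Which tool made which list is not given in the sources used here. The authors deposited the 12 ESC lists with a peak signal in column 7, which was not used as a value, and a score per peak. In the 4 embryoid body lists the authors' column 7 was taken as fold enrichment, from its range, and the authors' -log10 p served only to make a stricter list. Peaks were called per library, and depth is unknown because the lists hold no counts.

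From these lists, autosomal, X and Y peaks that overlapped by at least 1 bp were joined into regions. Each region took the highest fold enrichment of its peaks in a list, ranked as a percentile within the list and among regions of all 4 embryoid body lists. Column 7 was never compared between lists as a value. Genes were 21887 protein-coding genes of RefSeq GRCm38.p6, with a window of 1000 bp for gene ends and a limit of 100 kb for assignment. The members and the gene lists were chosen with earlier results of these data known. Named were the 15 regions with the highest lowest rank, 10 such at gene ends, 5 farthest, 8 with the largest rank gap per direction, the 15 genes with most EB-only regions, up to 4 genes a list, markers, and gene end regions of the lists. The only test was a two-sided exact permutation test of library medians. Other overlaps, windows, rank gaps, list cuts and left-out lists were tried. Functions were tested on simulated data. Python 3.11.15, numpy 2.4.6, pandas 2.3.3, scipy 1.17.1 and matplotlib 3.10.9 were used. A few named items are not reported here.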

Additional observations from a re-analysis of the deposited data

How the results depend on the processing

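The number of EB-only regions, 16789, was 10196 when a peak had to cover at least 50% of the region in each embryoid body list, 5605 with the upper 50% of each embryoid body list by the authors' p, and 28632 against the 2 parental ESC lists alone. Over the same 3 settings the gene end share was 10.3%, 11.97% and 19.1% (53.5%, 53.1% and 54.9% in regions with an ESC peak), the median percentile 64.8, 77.5 and 63.3, and with the last 2 the median distance 24499 and 18686.5 bp. Gene end windows of 500 and 2500 bp gave 8.83% and 15.7%. Among regions of all 4 lists the median percentile was 36.2. Regions ranked higher in DKO lists numbered 511 of 5605 with the upper 50%. With no minimum gap they were 3323 (19.8%, against 20.4% of all common regions), and at 20 points 688 (4.10%, against 4.13%). Those ranked higher in parental lists numbered 1211 of 10196 at 50% overlap and 739 of 5605 with the upper 50%. With no minimum gap they were 4288 (25.5%, against 24.4%), and at 20 points 1028 (6.12%, against 3.63%). For the upper 50% and the 50% overlap, the share over all common regions was not computed. With the upper 50%, 299 regions lay at list genes and 63 at the 15 named genes. The chromosome 8 share minus that of all chromosomes, -12.7 percentage points, was 0.193 against the 2 parental ESC lists.

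With embryoid body lists of equal length, 14160 regions were EB-only, and 1410 (DKO) and 1956 (parental) of these ranked higher. Leaving out 1 list at a time gave 16789 to 21568 EB-only regions, a gene end share of 9.84% to 13.2% and a median distance of 21722.5 to 25079 bp. Of these regions 1506 to 3918 ranked higher in DKO lists and 2165 to 4642 in parental lists. Leaving out each of the 4 embryoid body lists moved both of these counts by over 1.5 times. With the replicate number as a replicate block the counts were 2116 (DKO) and 2849 (parental) of 16789. The share over all common regions was not computed for equal length or for the block. Same-numbered libraries had a correlation of deviations of -0.0452. The labels do not say whether they shared a culture or batch. A single correlation with 1 contrast per genotype cannot decide it. The causes were not tested. Depth is unknown, and a shorter ESC list leaves more regions without an ESC peak.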

Other observations

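Genes of motile cilia, a list put together after the values were seen, had 63 EB-only regions among 119 (52.9%), at 33 of 46 genes. The background over all assigned regions was 37.8%. Gmnc, a regulator of multiciliated cell fate, had 6, and the axonemal dyneins Dnah5 and Dnah6 had 5 each. Armc2 had 4. DKO lists ranked 1 of the 63 higher and parental lists 6 (9.52%), on backgrounds of 8.97% and 12.9% over EB-only regions.

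The densest windows of 200 kb were chr11:97400001-97600000 around Arhgap23 and Srcin1, with 15 EB-only regions among 21 of all 4 embryoid body lists, and chr7:29000001-29200000 around Ryr1, with 14 of 18. The window chr7:45600001-45800000 had 13 of 19, and chr5:112200001-112400000 had 12 of 15.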
